A study of Mus musculus with 2 samples.

Results

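ATP-binding cassette (ABC) genes were examined in CH cells, small cells of the blood that lack CD45 and the markers of mature blood lineages. Their members were all genes whose symbol is Abc, a subfamily letter from a to g, a number and at most 1 further letter, and that had at least 1 probe set whose annotation names them alone. By this rule 45 genes with 92 probe sets were found among 18193 genes with 34945 such probe sets. The RefSeq gene annotation holds 50 genes with such a symbol, and 5 of them had no value here. The measurements come from 2 Affymetrix mouse arrays with a 3' design, and each array holds RNA of 1 pool of sorted cells. The submitters call the pools biological replicates. Each probe set is a group of short probes against 1 stretch of a transcript. Per the labels, each pool came from 15 adult C57bl/6 mice of both sexes and 7 months of age, while the paper's general methods give younger mice and smaller pools. The mice were healthy and untreated, the cells were taken as negative for CD45 and lineage antibodies and positive for a dye of DNA, and no array of another population was used, so no comparison between conditions was made. The values come from bulk RNA, in which fewer cells of a type and less RNA per cell cannot be told apart.

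ABC proteins bind and hydrolyse ATP in a conserved nucleotide-binding domain, and most of them use it to move substrates across a membrane. The subfamilies ABCA and ABCG move mainly lipids and sterols, ABCB and ABCC include exporters of drugs, peptides, bile salts and conjugates as well as channel regulators, and ABCD proteins move fatty acids into peroxisomes or cobalamin out of lysosomes. ABCE and ABCF proteins have no membrane domain and act on ribosomes. In stem cell research the family is known for dye efflux, because Abcg2 and the P-glycoproteins can expel Hoechst dye. Efflux through Abcg2 defines the side population of bone marrow. DyeCycle Violet, a relative of the DyeCycle Green dye of the CH cell sort, is also a known substrate of ABCG2, and efflux of the green dye was not measured here.

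Transcripts of most ABC genes gave a signal above 5 (log2) in CH cells. This was the case for 31 of 45 ABC genes (68.9%), against 12950 of 18193 genes (71.2%), so the share in the family was close to that over all genes. The limit of 5 is the value below which the paper removed genes from its clustering, and a gene was counted when at least 1 of its probe sets exceeded it on both arrays. With limma, which set each mean against 5 with Benjamini-Hochberg adjustment over 45037 probe sets, 31 ABC genes had an adjusted p under 0.05 above the limit, the same 31 genes, against 69.1% of all genes. A limit of 8 was passed by 13 ABC genes (28.9%), against 37.0% of all genes. The median signal of the highest probe set was 6.12 over the ABC genes and 6.84 over all genes. Signals also reflect the affinity of each probe set, so levels of different genes do not rank their transcripts by abundance, and each gene is read here against the limits only. A signal above 5 does not separate a gene from background on its own, because 13 of 76 chemosensory receptor genes (17.1%), taken as background, passed it as well, and the 95th percentile of their probe sets was 6.04. Above that percentile on both arrays were 24 of the 45 ABC genes, and a limit of 6 was passed by 24 as well (57.8% of all genes). The 7 ABC genes above 5 but not above that percentile on both arrays were Abca2, Abca9, Abca13, Abcb1a, Abcc9, Abcc10 and Abcc12.

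**Figure D1:**
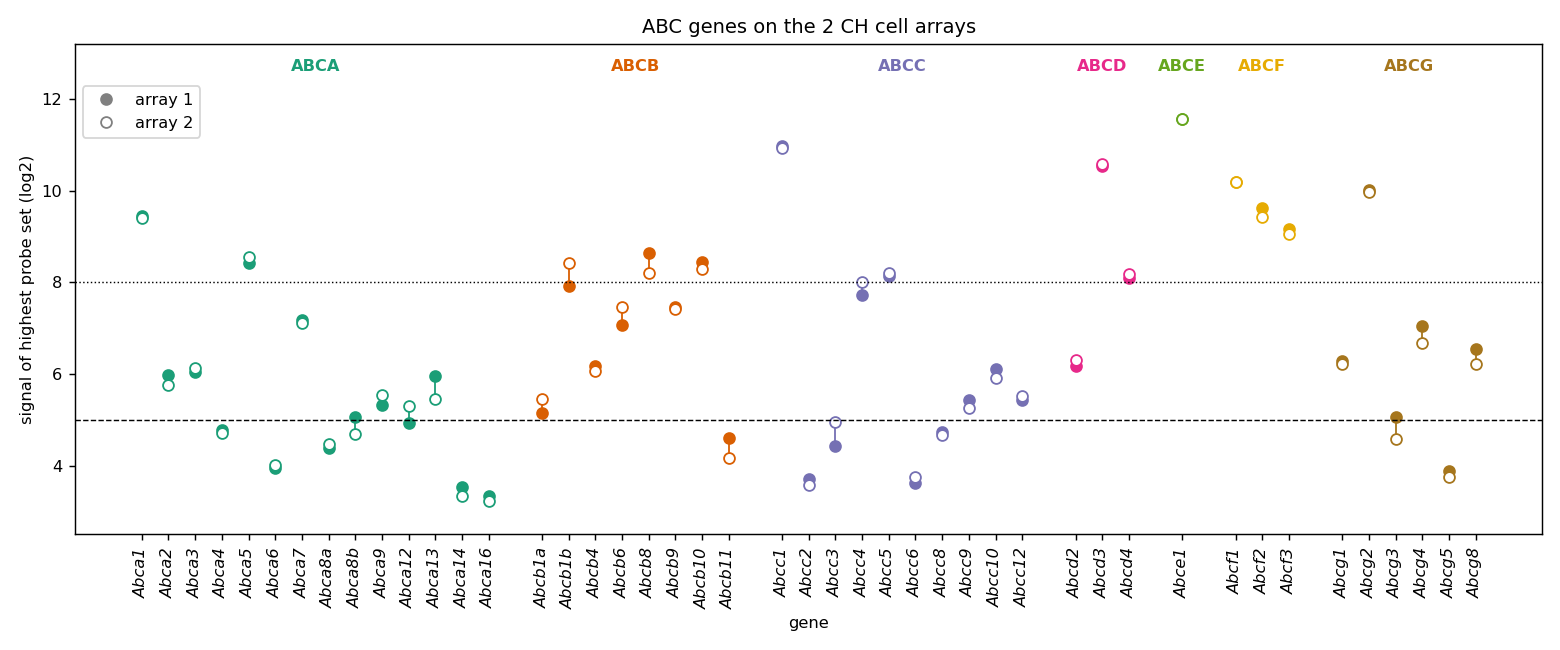
Log2 signal of the highest probe set of each of the 45 ABC genes in CH cells (vertical axis), by gene and subfamily (horizontal axis), with a filled circle for array 1 and an open circle for array 2. Limits of 5 and 8 (log2) are drawn as a dashed and a dotted line. All 4 genes of ABCE and ABCF lie above 8, while 7 of 14 ABCA genes do not lie above 5 on both arrays.

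The share of genes above the limits differed between subfamilies, without a test of that difference. Of ABCE, ABCF and ABCD, 7 of 7 genes were above 5 on both arrays, as were 7 of 8 ABCB, 4 of 6 ABCG, 6 of 10 ABCC and 7 of 14 ABCA genes, against 71.2% of all genes. All 4 genes without a membrane domain were above 8, against 9 of the other 41 ABC genes and 37.0% of all genes, a grouping made after the levels were seen. The number of probe sets per gene also differs and moves with these counts. Of ABC genes with 1 probe set, 7 of 19 were above 5 (36.8%), against 56.7% of all genes with 1 probe set. For genes with 2 probe sets the share was 87.5% of 16 ABC genes and 80.9% of all such genes, and with 3 or more it was 10 of 10 ABC genes and 91.5% of all such genes. The part of the number of probe sets in the differences between subfamilies was not tested.

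**Figure D2:**
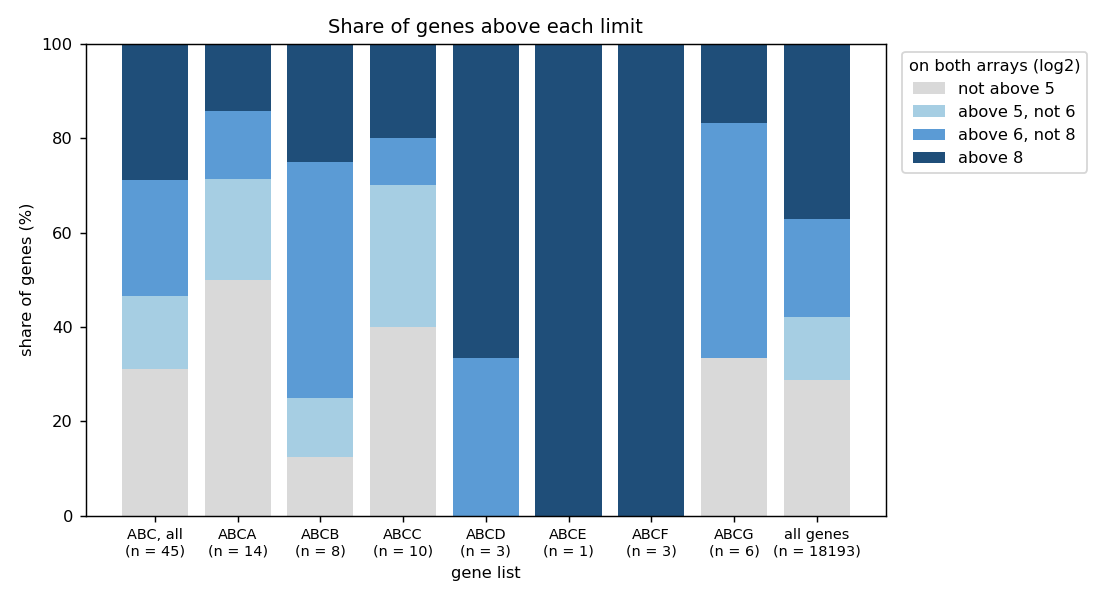
Share of genes (vertical axis, %) not above 5, above 5, above 6 and above 8 (log2) on both CH cell arrays with at least 1 probe set, for all ABC genes, each subfamily and all 18193 genes (horizontal axis, with the number of genes). The band above 8 holds all genes of ABCE and ABCF and 28.9% of the ABC genes, against 37.0% of all genes.

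Of the drug and dye efflux pumps, Abcg2 and Abcc1 were above 8, while Abcb1b and Abcb1a were above 5 with 1 of 2 probe sets each. In all, 5 of the 7 probe sets of these 4 genes were above 5 on both arrays, against 64.8% of all probe sets that name 1 gene. The promoters of Abcb1a and Abcb1b are shown because these neighbouring genes on chromosome 5 are close relatives and both encode P-glycoprotein in the mouse. The levels of these genes were not compared with each other, and a part of the promoters in the signals was not tested. The 3 start regions of Abcg2 are shown because its only probe set cannot tell which start was used. Each window covers 250 bases before to 50 after a start in RefSeq (GRCm38.p6, plus strand), with matches to 3 motifs in capitals. The GC box was searched as GGGCGG. The other motifs were CCAAT, bound by the factor NF-Y, and the TATA box, searched by the letters TATAAA. Both strands were searched, and matches could overlap.
Abcb1a, chr5:8566841-8567140: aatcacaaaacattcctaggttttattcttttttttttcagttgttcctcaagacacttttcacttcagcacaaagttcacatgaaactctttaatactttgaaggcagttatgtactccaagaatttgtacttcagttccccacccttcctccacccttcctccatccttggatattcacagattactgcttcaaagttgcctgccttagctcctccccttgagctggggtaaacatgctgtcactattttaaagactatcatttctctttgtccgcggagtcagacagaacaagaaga
Abcb1b, chr5:8797897-8798196: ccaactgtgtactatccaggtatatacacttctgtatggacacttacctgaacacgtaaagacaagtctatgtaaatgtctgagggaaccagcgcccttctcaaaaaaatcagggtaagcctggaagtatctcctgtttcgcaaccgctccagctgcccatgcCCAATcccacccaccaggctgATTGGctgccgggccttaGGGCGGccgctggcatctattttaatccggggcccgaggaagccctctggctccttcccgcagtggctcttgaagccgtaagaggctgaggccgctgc
Abcg2 first start, chr6:58584283-58584582: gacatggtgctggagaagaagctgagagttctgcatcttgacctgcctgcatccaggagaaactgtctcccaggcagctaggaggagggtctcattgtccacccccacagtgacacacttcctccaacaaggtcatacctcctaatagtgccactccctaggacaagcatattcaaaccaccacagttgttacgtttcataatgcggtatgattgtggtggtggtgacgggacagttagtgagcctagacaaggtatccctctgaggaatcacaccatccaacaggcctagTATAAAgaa
Abcg2 next start, chr6:58596422-58596721: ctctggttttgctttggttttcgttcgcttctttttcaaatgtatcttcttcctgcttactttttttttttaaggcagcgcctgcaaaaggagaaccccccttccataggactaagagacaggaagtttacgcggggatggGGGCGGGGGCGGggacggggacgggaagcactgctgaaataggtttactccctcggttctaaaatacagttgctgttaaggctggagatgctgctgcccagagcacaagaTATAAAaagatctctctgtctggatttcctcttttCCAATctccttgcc
Abcg2 last start, chr6:58640296-58640595: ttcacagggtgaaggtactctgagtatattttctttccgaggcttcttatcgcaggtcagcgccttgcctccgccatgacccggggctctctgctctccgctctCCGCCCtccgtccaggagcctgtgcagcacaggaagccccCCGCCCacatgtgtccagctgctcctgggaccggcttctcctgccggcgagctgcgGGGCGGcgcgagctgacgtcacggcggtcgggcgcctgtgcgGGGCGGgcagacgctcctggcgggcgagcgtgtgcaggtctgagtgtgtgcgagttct
The window of Abcb1a held none of these motifs and 2 CpG dinucleotides, and that of Abcb1b held 1 GC box, 2 CCAAT boxes and 12 CpG. The last start of Abcg2 held 4 GC boxes and 28 CpG. The next start held 2 GC boxes, 1 match to CCAAT and 1 to TATAAA, and the first start 1 match to TATAAA and 3 CpG. These matches to TATAAA and CCAAT lay in the 50 bases after the start, not before it. Promoter windows matched 35 of the 45 ABC genes, with 42 windows. A GC box stood in 59.4% of the windows of ABC genes above 5 and in 2 of 10 windows of ABC genes not above 5, against 60.1% and 30.7% of the windows of all genes above and not above 5, and in 35.7% of all 32851 windows. A CCAAT box stood in 35.7% of the ABC windows and in 37.4% of all windows, and TATAAA in 16.7% and 13.6%. The motifs were chosen after the signals were seen, and a match is a description of these letters only.

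Abcg2, the breast cancer resistance protein, which expels dyes, porphyrins and many drugs, had signals of 10.02 and 9.96 on arrays 1 and 2 with its only probe set (1422906_at). Its mean of 9.99 ± 0.04 (SD, n = 2 arrays) was above 5 with an adjusted p of 1.3e-07 from limma. Abcc1, the multidrug resistance protein that exports glutathione conjugates and leukotriene C4, had 10.98 and 10.92 with 1 probe set (1452233_at) and 8.98 and 9.11 with the other (1421378_s_at). Both pumps were therefore above 8 with every probe set on both arrays, and the arrays differed by at most 0.13 for any of them. For Abcb1b, 1 probe set (1418872_at) had 7.91 and 8.43, a mean of 8.17 ± 0.36 (SD, n = 2 arrays; adjusted p = 6.9e-06 from limma). Its other probe set (1446701_at) had 4.25 and 4.03 and lay below 5 (adjusted p = 2.3e-04 from limma), so the call of Abcb1b depends on the probe set. Abcb1a had 5.15 and 5.47 with 1 probe set (1419759_at; adjusted p = 0.031 from limma) and 4.70 and 4.77 with the other (1419758_at), which lay below 5 (adjusted p = 0.015 from limma). The arrays differed by 0.32 for the higher probe set, whose mean was 5.31, and with the median of its probe sets its level was 5.02 (adjusted p = 0.82 from limma).

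In the rest of ABCB, Abcb4, Abcb6, Abcb8, Abcb9 and Abcb10 were above 5 with at least 1 probe set, and Abcb11 was not. Abcb8 and Abcb10, both of the inner mitochondrial membrane, the second with a role in heme synthesis, were above 8 on both arrays, with 8.64 and 8.19 for Abcb8 and 8.45 and 8.28 for Abcb10. Their other probe sets were at 7.28 for Abcb8 and at 7.08 and 5.31 for Abcb10, so all of them lay above 5. Abcb6, a porphyrin transporter, had 7.08 and 7.45. Abcb9, a peptide transporter of lysosomes related to TAP, had 7.45 and 7.42 with 1 probe set and means of 4.80 and 4.50 with the others. Abcb4, which moves phosphatidylcholine into bile, had 6.17 and 6.07. Abcb11, the bile salt export pump, had 4.61 and 4.17 (adjusted p = 0.0046 below 5 from limma). It was the only ABCB gene with a value here that was not above 5.

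Of the ABCC genes, the exporters Abcc4 and Abcc5 stood beside Abcc1, and the exporters best known from the liver were not above the limit. Abcc4, an exporter of cyclic nucleotides and prostaglandins, had 7.73 on array 1 and lay just above 8 on array 2 with its only probe set, with a mean of 7.87 ± 0.19 (SD, n = 2 arrays). Abcc5, which also exports cyclic nucleotides, had 8.13 and 8.20 with its highest probe set, and its 10 probe sets ranged from 3.96 to 8.17, with 7 of them above 5. Abcc10 had 6.11 and 5.90 and Abcc12 had 5.43 and 5.51, each with another probe set below 5 (4.36 and 4.12). Abcc2, the conjugate exporter of the bile canaliculus, had 3.70 and 3.57, and Abcc6, whose loss in people causes pseudoxanthoma elasticum, had 3.63 and 3.76. Abcc3, the conjugate exporter of the basolateral membrane, had 4.43 and 4.95, which did not differ from 5 by limma (adjusted p = 0.075).

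The regulators of ATP-sensitive potassium channels were near or below the limit, while a gene of the channel pore was above 8 with 1 of its probe sets. Abcc8, the sulfonylurea receptor of pancreatic beta cells, had 4.74 and 4.68 with its higher probe set and a mean of 4.15 with the other. Abcc9, the receptor of heart and vessels, had 5.43 and 5.26 with 1 probe set (adjusted p = 0.0089 from limma), and its other probe sets were at 4.38 and 3.41. Kcnj11, a pore subunit that works with either receptor, had 10.05 and 9.79 with 1 probe set and a mean of 4.48 with the other, and Kcnj8, the other pore subunit, had 5.49 and 5.44.

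ABCA was the subfamily with the most genes below the limit, and its clear exceptions were Abca1, Abca5 and Abca7. Abca1, which loads cholesterol and phospholipid onto apolipoprotein A-I, had 9.46 and 9.39 with 1 probe set, while its other probe sets had means of 5.42 and 4.03. Abca5, a protein of lysosomes and endosomes, had 8.42 and 8.55, with its other probe set at 4.12. Abca7, a phospholipid transporter involved in phagocytosis, had 7.17 and 7.10 with its only probe set. Abca1 and Abca5 were the ABCA genes above 8 on both arrays. Abca3, which fills the lamellar bodies of lung cells with surfactant lipid, had 6.05 and 6.12 with its highest probe set. Its other probe sets had means of 5.89 and 3.44, the last below 5 (adjusted p = 9.2e-06 from limma). Abca2, a protein of lysosomes abundant in myelinating cells, had 5.97 and 5.76. Abca13 had 5.96 and 5.46, and Abca9 had 5.31 and 5.54 with its higher probe set, both above 5.

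The other 7 ABCA genes were not above 5 on both arrays, each with a single probe set. Abca14 and Abca16, genes found in testis in the mouse, had means of 3.44 and 3.29. Abca4, the retinoid transporter of photoreceptors, was at 4.75, Abca8a at 4.43 and Abca6 at 3.99, and all 5 of these lay below 5 by limma, with the highest adjusted p, 0.019, for Abca4. Abca12, the lipid transporter of the skin barrier, had 4.93 and 5.30, and Abca8b had 5.06 and 4.70, so the arrays lay on either side of the limit and neither gene differed from it by limma (adjusted p = 0.34 and 0.33). Abca5 stands in a row of 5 related genes on chromosome 11 (Abca8b, Abca8a, Abca9, Abca6 and Abca5). Of this row Abca5 was above 8 and Abca9 above 5, and the others were not above 5 on both arrays.

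The 3 ABCD genes analysed here were above the limit. Abcd3, the abundant peroxisomal transporter of branched fatty acids and bile acid intermediates, had 10.53 and 10.57 with 1 probe set and a mean of 3.94 with the other. Abcd4, needed for the release of cobalamin from lysosomes, had 8.10 and 8.18, with its other probe set at 5.86. Abcd2, a peroxisomal transporter of very long and unsaturated fatty acids, had 6.18 and 6.30 with the highest of its 4 probe sets, of which 2 were above 5. The proteins that insert membrane proteins into peroxisomes were above the limit as well, with Pex3 at 10.11, Pex19 at 8.75 and Pex16 at 7.13.

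The genes of ABC proteins that act on ribosomes were above 8 with their highest probe set. Abce1, the iron-sulfur protein that splits ribosomes after termination, had 11.57 and 11.56 with 1 probe set and a mean of 11.05 with another, while its last probe set was at 4.31. Abcf1, which binds the initiation factor eIF2, had 10.20 and 10.19 with its highest probe set, and its 6 probe sets, from 5.72 to 10.19, were all above 5. Abcf2 had 9.63 and 9.42 and Abcf3 had 9.16 and 9.05, and their other probe sets, from 5.47 to 6.73, were above 5 too. With their highest probe set, the translation factors that work with Abce1 were all 4 above 8. Etf1 was at 11.62, Gspt1 at 11.89, Hbs1l at 10.09 and Pelo at 8.08. Other probe sets of Etf1 and Gspt1 had means down to 3.50 and 4.07. Of the iron-sulfur cluster assembly genes with a probe set, Glrx5 was at 11.94, Iscu at 10.63 and Nfs1 at 9.14.

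In ABCG, the sterol transporters Abcg1 and Abcg8 were above 5, as were Abcg2 and Abcg4, and Abcg5 was not. Abcg1, which moves cholesterol to high-density lipoprotein, had 6.29 and 6.21 with 1 probe set, while the other, at 5.20, was not above 5 by limma (adjusted p = 0.068). Abcg4, its relative of the nervous system, had 7.04 and 6.68, with its other probe set at 5.31. Abcg5 and Abcg8, neighbouring genes on chromosome 17 whose products work only as a pair in the export of plant sterols, gave unequal calls. Abcg8 had 6.55 and 6.22 (adjusted p = 6.7e-05 above 5 from limma), and Abcg5 had 3.89 and 3.75 (adjusted p = 4.0e-05 below 5 from limma), each with 1 probe set. Abcg3, a gene of rodents, had 5.05 and 4.59 with 1 probe set and did not differ from 5 by limma (adjusted p = 0.22). Its other probe set, at 3.36, lay below 5 (adjusted p = 7.0e-06 from limma).

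Among the 5 exporters of the bile canaliculus (Abcb4, Abcb11, Abcc2, Abcg5 and Abcg8), grouped after the levels were seen, 2 were above 5 and 0 above 8, against 71.2% and 37.0% of all genes. Each of these exporters has 1 probe set. Among genes with 1 probe set, 56.7% of all genes and 36.8% of ABC genes were above 5. Of 4 hepatocyte markers with a probe set, 2 were above 5, Ttr at 6.15 and Apoa2 at 5.94. Other probe sets of Ttr had means down to 3.25. Alb, the albumin gene, was at 4.11 and Cyp3a11 at 3.75. The part of these hepatocyte markers in the signals of the canalicular genes was not tested.

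The probe sets of an ABC gene often disagreed. For the splits, the distances and the medians below, no share over all genes was counted. These counts are therefore not read as a trait of the family. Of 26 ABC genes with more than 1 probe set, 11 had all of them above 5 on both arrays, 2 had none (Abcc8 and Abcg3), and 13 had at least 1 above and 1 with a mean below. For 7 genes (Abca1, Abca5, Abcb1b, Abcc5, Abcd3, Abce1 and Abcf1) the distance between the highest and lowest probe set exceeded 4 (log2). When each gene was given the median of its probe sets instead of the highest, 26 of 45 ABC genes were above 5, and the 5 genes lost were Abcb1a, Abcb9, Abcc9, Abcc12 and Abcd2. Of all 92 probe sets, 58 (63.0%) were above 5 on both arrays, against 64.8% of all probe sets that name 1 gene. By limma 57 lay above 5 (62.0%), against 62.6% of all probe sets that name 1 gene, 27 lay below it, and 8 did not differ from it at an adjusted p under 0.05. The median over the 92 probe sets was 5.65, against 6.10 over all probe sets that name 1 gene.

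**Figure D3:**
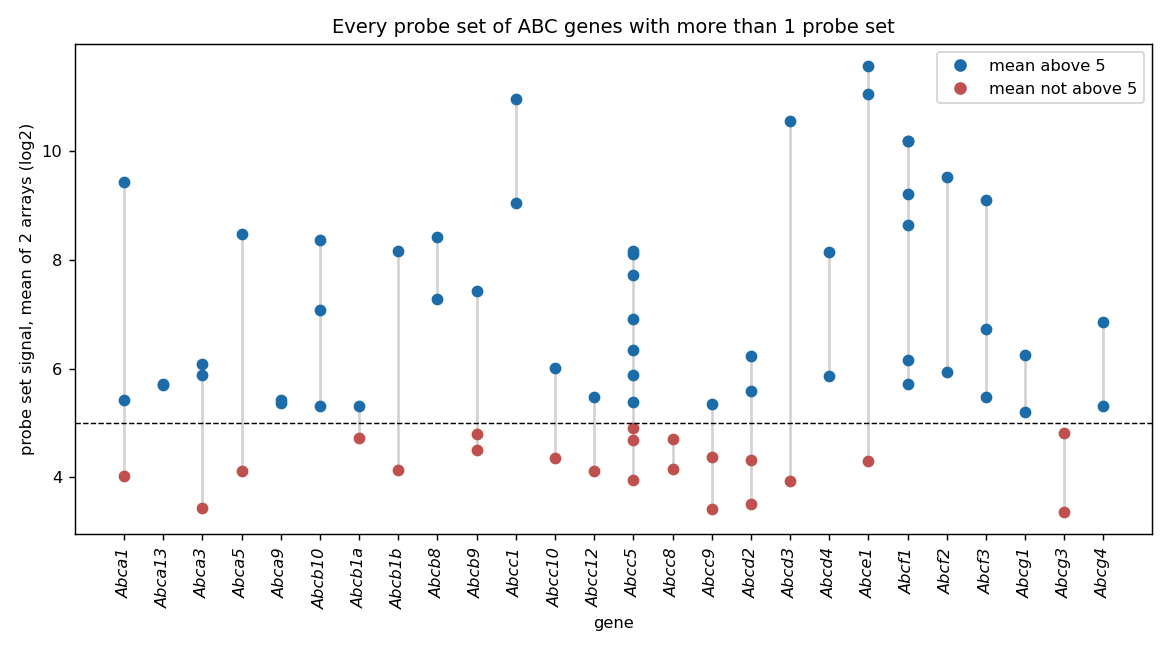
Signal (log2, vertical axis), averaged over both CH cell arrays, of every probe set of the 26 ABC genes with more than 1 probe set (horizontal axis), in blue where the mean is above 5 and in red where it is not. The dashed line marks 5, and grey lines join probe sets of a gene. Abcd3 spans 3.94 to 10.55 and Abcf1 5.72 to 10.19.

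The arrays gave close values for most ABC probe sets. The median absolute difference between the arrays was 0.13 over the 92 probe sets and 0.11 over all probe sets that name 1 gene. A difference over 0.4 was found for 9 of the 92 (9.78%), against 5.31% of all probe sets that name 1 gene. By highest probe set, the 5 genes that differed most were Abcc3 (0.51), Abcb1b (0.51), Abca13 (0.50), Abcg3 (0.46) and Abcb8 (0.44). Abcc3 and Abcb1b were higher on array 2 and the other 3 on array 1. Array 1 gave the higher value for 57 of the 92 ABC probe sets (62.0%), against 48.9% of all probe sets that name 1 gene, and with 1 array for each pool this was not tested.

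Further genes were read beside the family. The ABC proteins of antigen processing, Tap1 and Tap2, which pump peptides into the endoplasmic reticulum, were at 8.27 ± 0.15 and 9.18 ± 0.16 (SD, n = 2 arrays), with other probe sets of Tap1 down to 3.13. Cftr, the chloride channel of the ABCC subfamily, was at 3.37 ± 0.19 and lay below 5 (adjusted p = 2.2e-05 from limma). Of the partners and regulators of ABC transporters, 19 of 23 with a probe set were above 5, against 71.2% of all genes. Nfe2l2, which encodes the regulator of antioxidant and export genes NRF2, was at 12.03, and Ahr, the aryl hydrocarbon receptor, at 9.02. Those were their higher probe sets, and the others were at 6.35 and 4.57. The drug-sensing receptors of liver, Nr1i2 (PXR) at 4.57 and Nr1i3 (CAR) at 4.92, and the fatty acid receptor Ppara at 4.75 were not above 5 on both arrays. Around lipid efflux, Scarb1, the receptor of high-density lipoprotein, was at 9.46 and Apoe, an acceptor of cholesterol, at 9.07. Apoa1 was at 6.08, with other probe sets down to 3.88. Nr1h3, the sterol sensor LXR alpha that drives Abca1, was at 5.67 and Lcat at 5.62. Slc47a1, a drug exporter outside the ABC family, was at 3.80.

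**Figure D4:**
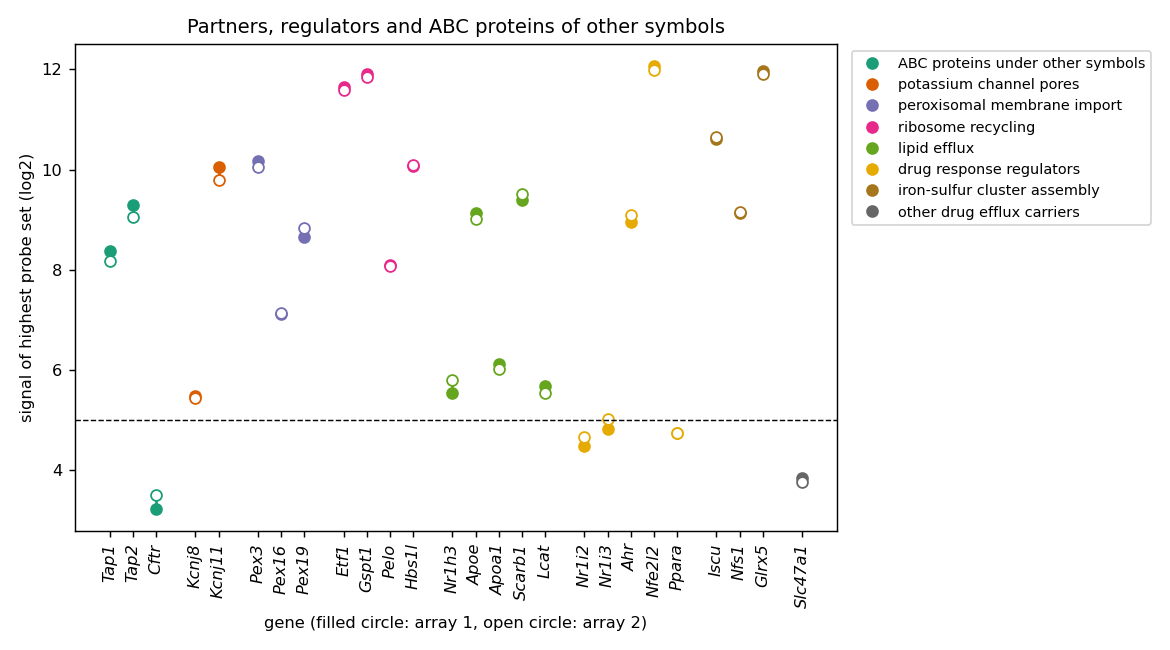
Log2 signal of the highest probe set in CH cells (vertical axis) for ABC proteins with other symbols and for partners and regulators of ABC transporters (horizontal axis), coloured by list, with a filled circle for array 1 and an open circle for array 2. The dashed line marks 5 (log2). Nfe2l2 lies at 12.03 and Cftr at 3.37.

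On the arrays as a whole, the pools correlated with Pearson's r = 0.9967 over 45037 probe sets, which do not count as replicates, and the medians were 5.54 and 5.52. The label of the cells was set against markers, of which counts above 5 are read against 71.2% of all genes. Ptprc, which encodes CD45, was at 5.10 and on either side of 5 with its higher probe set, and at 3.58 with the other. Of 5 leukocyte genes with a probe set, 3 were above 5, from 3.85 to 9.58 over the list by highest probe set, with Lyz2 highest. Platelet genes were above 5 in 4 of 4 cases (5.98 to 7.18), erythroid genes in 1 of 3 (4.22 to 5.90), endothelial genes in 2 of 5 (4.17 to 6.43) and genes of blood stem cells in 1 of 3 (4.47 to 7.00). By limma the leukocyte count was 2 and the endothelial count 1, and the counts of the other lists were the same. The lowest platelet and the highest erythroid value lay below 6.04, the 95th percentile of chemosensory probe sets. Mesenchymal genes were above 5 in 6 of 6 cases (7.47 to 14.27) and pluripotency genes in 4 of 4 (7.11 to 9.49). The part of any of these cell types in the ABC signals was not tested.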

How the data were processed

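For both pools, the deposited values are log2 signals of the authors, 1 for each probe set of an Affymetrix mouse expression array. The paper normalised its CH cell arrays jointly with public arrays by RMA and quantiles. It is not stated that this joint run gave the deposited values, and tool versions were not given in the sources used here. RMA subtracts background and pulls low signals together, and joint normalisation makes the scale depend on the other arrays. No value column was left out. After removal of 64 control probe sets, 45037 remained, of which 34945 name 1 gene, 932 several and 9160 were not listed. Symbols were updated through Entrez identifiers (GRCm38.p6, 34741 matched, 0 changed). Probe set means were tested against 5 in R 4.3.3 (limma 3.58.1) with a model that holds only an intercept, two-sided, with Benjamini-Hochberg adjustment over all probe sets, tested on simulated data. With 2 arrays, precision is limited by their number. The empirical Bayes step of limma shares the spread over all probe sets, so a p-value does not rest on the SD of its own probe set alone. The p-values cover only the spread between these pools. Python 3.11.15 was used for counts.

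The members and lists were chosen with earlier results of these data known. Named were all ABC genes found by the symbol rule. Values on both arrays were given for the efflux pumps. Values on both arrays or their means were given for up to 4 genes with the highest and 2 with the lowest mean of each subfamily. The same was done for the 5 with the largest difference between arrays, for genes with probe sets on both sides of 5 and for those close to 5. Partners, regulators and markers came from fixed lists, and genes of these lists without a probe set of their own were not analysed here. Promoter windows were taken from RefSeq (GRCm38.p6). Alternatives were other limits, quantile normalization, each array left out, the median over probe sets, omission of _s_at and _x_at probe sets, and for limma a trended prior and a filter at 4.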

Additional observations from a re-analysis of the deposited data

How the results depend on the processing

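No paired analysis was possible because both arrays belong to the same group. A limit of 8 left 13 ABC genes and 19 ABC probe sets above it on both arrays and 11 ABC genes by limma. For probe sets, a limit of 6 gave 37 and the 95th percentile of chemosensory probe sets gave 36, against 58 at 5. Higher limits admit fewer by construction. Shares over all probe sets, and limma shares over all genes, were counted at 5 only. No share over all genes was counted at the chemosensory percentile. With 1 array left out, the counts were 32 to 33 genes and 59 to 60 probe sets. Quantile normalization, the median over probe sets (26 genes), omission of _s_at and _x_at probe sets (30 of 43 genes), the trended prior and the filter at 4 moved no count of ABC genes by over 1.5 times. Quantile normalization alone gave 31 genes and 58 probe sets, as before. By subfamily, the limit of 8 moved 4 of 7 counts by more than that, and the limit of 6 and the chemosensory percentile 2 of 7 each. The other probe set of Abcb1a (4.73) and that of Abcb1b (4.14) put these genes below 5, and the cause was not tested. By limma, 8 of the 92 ABC probe sets did not differ from 5, and precision is limited by the number of arrays.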
